A study of Mus musculus with 8 samples.

Results

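The 10 genes described here make or control the making of fatty acids: Fasn, Acaca, Acly, Scd1, Scd2, Elovl5, Elovl6, Srebf1, Me1 and Thrsp. They were taken by name from a table of 54091 genes measured in the white part of the quadriceps of the mouse, a muscle of fast glycolytic fibres. All 10 were found, and all 10 had enough reads to be among the 13638 genes tested. RNA came from 8 male mice, aged 11 to 14 weeks, fed a regular Purina chow diet and sampled in the morning. Of these, 4 had the genotype Loxp/Loxp and are called Loxp, and 4 carried CKM Cre with a knockout of Acot2 in muscle and are called Cre. Acot2 is a mitochondrial thioesterase that splits long-chain acyl-CoA. The promoter of the muscle creatine kinase gene Ckm drives the recombinase in muscle fibres, so fat cells, nerve and vessels within the sample are not its target. No Cre is named for the control genotype, so recombinase and loss of Acot2 come together in the Cre group and cannot be told apart. The sources used here do not say which exons the loxP sites flank.

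Fatty acids are built in the cytosol. Citrate leaves the mitochondrion and Acly cleaves it to acetyl-CoA, Acaca carboxylates acetyl-CoA to malonyl-CoA, and Fasn, a single large enzyme, joins these units into palmitate with NADPH that comes in part from Me1, the cytosolic malic enzyme. Elovl6 extends palmitate to stearate, Scd1 and Scd2 place a double bond to give oleate and palmitoleate, and Elovl5 extends polyunsaturated chains. Srebf1 encodes the transcription factor that drives many of these genes under insulin, and Thrsp (Spot 14) encodes a small protein that promotes lipogenesis. Liver and fat are the classic sites of the pathway. In muscle fibres malonyl-CoA, made mainly by the sister enzyme Acacb, is best known as the brake on mitochondrial fatty acid entry, and fat cells that lie between the fibres contribute their own transcripts to a piece of muscle.

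Upstream sequences of 3 members are shown because each stands for 1 of the patterns described below: Fasn for genes whose level went with the fat-cell gene Adipoq, Acly for genes high in a single library, and Elovl5 for genes that did neither. Each is the 250 bases before a RefSeq transcription start on GRCm38.p6, read 5′ to 3′ on the gene's strand. Fasn lies on the minus strand (chr11:120824548-120824797), Acly on the minus strand (chr11:100528001-100528250) and Elovl5 on the plus strand (chr9:77917115-77917364). Capitals mark CCAAT, the box bound by NF-Y, GGGCGG, the GC box, or CACGTG, an E-box, on either strand.
Fasn: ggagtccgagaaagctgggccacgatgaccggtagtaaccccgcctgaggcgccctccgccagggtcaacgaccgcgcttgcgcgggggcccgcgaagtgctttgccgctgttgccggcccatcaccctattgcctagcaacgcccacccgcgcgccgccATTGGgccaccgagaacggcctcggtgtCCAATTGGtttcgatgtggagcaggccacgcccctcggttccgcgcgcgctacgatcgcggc
Acly: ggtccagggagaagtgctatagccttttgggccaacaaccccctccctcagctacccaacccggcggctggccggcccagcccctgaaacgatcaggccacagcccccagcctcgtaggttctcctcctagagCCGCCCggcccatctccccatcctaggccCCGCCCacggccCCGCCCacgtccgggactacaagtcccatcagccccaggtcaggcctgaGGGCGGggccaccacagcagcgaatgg
Elovl5: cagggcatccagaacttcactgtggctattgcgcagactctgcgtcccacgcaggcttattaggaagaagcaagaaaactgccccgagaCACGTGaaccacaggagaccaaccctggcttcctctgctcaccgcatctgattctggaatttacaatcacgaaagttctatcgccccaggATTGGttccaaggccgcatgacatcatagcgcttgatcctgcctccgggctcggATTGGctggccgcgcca
The Fasn window held 3 matches to CCAAT, at 90, 62 and 59 bases before the start, and those at 62 and 59 overlap in the run CCAATTGG. The Acly window held 4 matches to GGGCGG, at 117, 88, 76 and 27 bases. Elovl5 had 2 matches to CCAAT, at 71 and 17 bases, and 1 to CACGTG at 161 bases. Such matches are common: of 32851 windows of the same length, 33.85% held CCAAT, 32.74% held GGGCGG and 6.02% held CACGTG. TCACNCCAC, the sterol regulatory element form, and the direct repeat with a spacer (DR4) bound by liver X receptors were in 1.05% and 0.0152% of all windows and in none of the 11 windows of the 8 members that had an entry. Among these, Thrsp held 2 matches to CCAAT, and Acaca and Elovl6 held none of the 5 motifs. Scd1 and Scd2 were not matched.

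Library totals ran from 30415429 to 48834283 reads. Values are normalized reads, that is, reads divided by 1 scaling factor per library, in which 1 read is worth 0.708 to 1.22. Acot2 held 149 to 251 normalized reads in Loxp and 42.8 to 53.7 in Cre libraries, without overlap, so the targeted gene went with the labels (limma, log2 difference -2.13, adjusted p = 0.000962). The labels name no batch, the animal numbers point to separate mice, and p-values measure the spread between these animals. Loxp replicates 2 and 3 stood apart in their fat-cell transcripts. Adipoq, the fat-cell hormone adiponectin, held 224, 1738, 688 and 64.9 normalized reads in Loxp replicates 1 to 4 and 169, 46.5, 118 and 119 in Cre replicates 1 to 4. All 10 adipocyte markers passed the filter on low values, and their summed level ran from 558 to 15109 in Loxp and from 408 to 1183 in Cre libraries, so the groups overlapped. Ucp1, the marker of brown fat, was at 0 in 6 libraries and at 1.01 and 1.12 in Loxp replicates 1 and 2. In such bulk samples fewer fat cells and less RNA per fat cell cannot be told apart.

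No member passed the test between Cre and Loxp, and 9 of 10 had a difference below 0. The difference is Cre minus Loxp on the log2(normalized reads + 1) scale, from limma with Benjamini-Hochberg adjustment over all genes. Of the 10 members 0 were called at an adjusted p under 0.05, with an adjusted p of 0.9995 for each, and of all 13638 genes 2 were called (0.0147%). Of the members 1, Fasn, had an unadjusted p under 0.05, against 2.91% of all genes, and limma-voom on the recovered reads called 0 members, with none at an unadjusted p under 0.05. The median difference was -0.63 over the members and 0.0049 over all genes tested. Without Loxp replicate 2, 7 of 10 members lay below 0. Beside this, 10 of 10 adipocyte markers lay below 0 with a median of -1.93, of which 0 were called in limma or limma-voom and 6 had a limma p under 0.05 before adjustment. Other markers that lay to 1 side of 0 were those of smooth muscle, 4 of 4 below 0 (median -0.31, 0 called, Cnn1 at an unadjusted p = 0.0295), and of oxidative fibres, 7 of 7 above 0 (median 1.60, 0 called, Myh7 at 3.85 and an unadjusted p = 0.0430), both in limma. Their summed levels ran from 2947 to 3852 normalized reads in Loxp and 2071 to 3772 in Cre libraries for smooth muscle, and from 7024 to 111642 and 14862 to 98005 for oxidative fibres. Myh7 held 7.83 to 40.1 normalized reads in Loxp libraries and 11.8, 35.5, 2133 and 7430 in Cre replicates 1 to 4. Myl2, Tnnt1, Tnni1 and Tnnc1 were also highest in Cre replicates 3 and 4. In Cre replicates 1 and 2 they were not above the Loxp range. The part of fat cells, smooth muscle or fibre type in the members' differences was not tested. The level of every member overlapped between the groups, as did that of most genes: the groups did not overlap in 1.92% of all genes.

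Of the genes that supply the building blocks, Acly was high in a single animal and Acaca in Loxp replicates 2 and, less so, 3. Acly held 443, 2575, 604 and 561 normalized reads in Loxp replicates 1 to 4, and 409, 522, 517 and 593 in Cre replicates 1 to 4. Apart from Loxp replicate 2 the libraries of both groups shared a narrow range, and the groups overlapped. Its difference was -0.64 (SE 0.44, 95% confidence interval -1.60 to 0.32), and -0.07 (SE 0.14) without Loxp replicate 2. Acaca, acetyl-CoA carboxylase 1, held 635, 3273, 909 and 596 normalized reads in Loxp replicates 1 to 4, and 568, 572, 597 and 598 in Cre replicates 1 to 4. The Cre libraries lay within a few percent of each other, Loxp replicate 4 lay among them, and Loxp replicates 2 and 3 were highest. The Acaca difference was -0.82 (SE 0.42, interval -1.75 to 0.11), and -0.26 (SE 0.13) without Loxp replicate 2.

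Fasn, fatty acid synthase, had the widest fold range of the members. It held 1840.5, 21147, 3895 and 1299 normalized reads in Loxp replicates 1 to 4, and 1112, 1117.5, 1604 and 1538 in Cre replicates 1 to 4. Loxp replicate 2 was far above all others and Loxp replicate 3 was second, while Loxp replicate 4 lay between the Cre libraries. The group means were 7045 ± 9467 and 1343 ± 265 (SD, n = 4 each), so that the Loxp SD was larger than its mean. The log2 difference was -1.50 (SE 0.67, interval -2.97 to -0.03), with an unadjusted p = 0.0458 and an adjusted p = 0.9995 in limma. Leaving out Loxp replicate 2 brought it to -0.67 (SE 0.30).

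Me1, the malic enzyme that yields NADPH, was even across animals. It held 6722, 8806, 5886 and 6968 normalized reads in Loxp replicates 1 to 4, and 6995, 7336, 5512 and 5265 in Cre replicates 1 to 4. Loxp replicate 2 was again highest but by a small margin, and Cre replicates 3 and 4 were lowest. Its difference was -0.18 (SE 0.13, interval -0.47 to 0.12), and -0.07 (SE 0.12) without Loxp replicate 2.

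**Figure D1:**
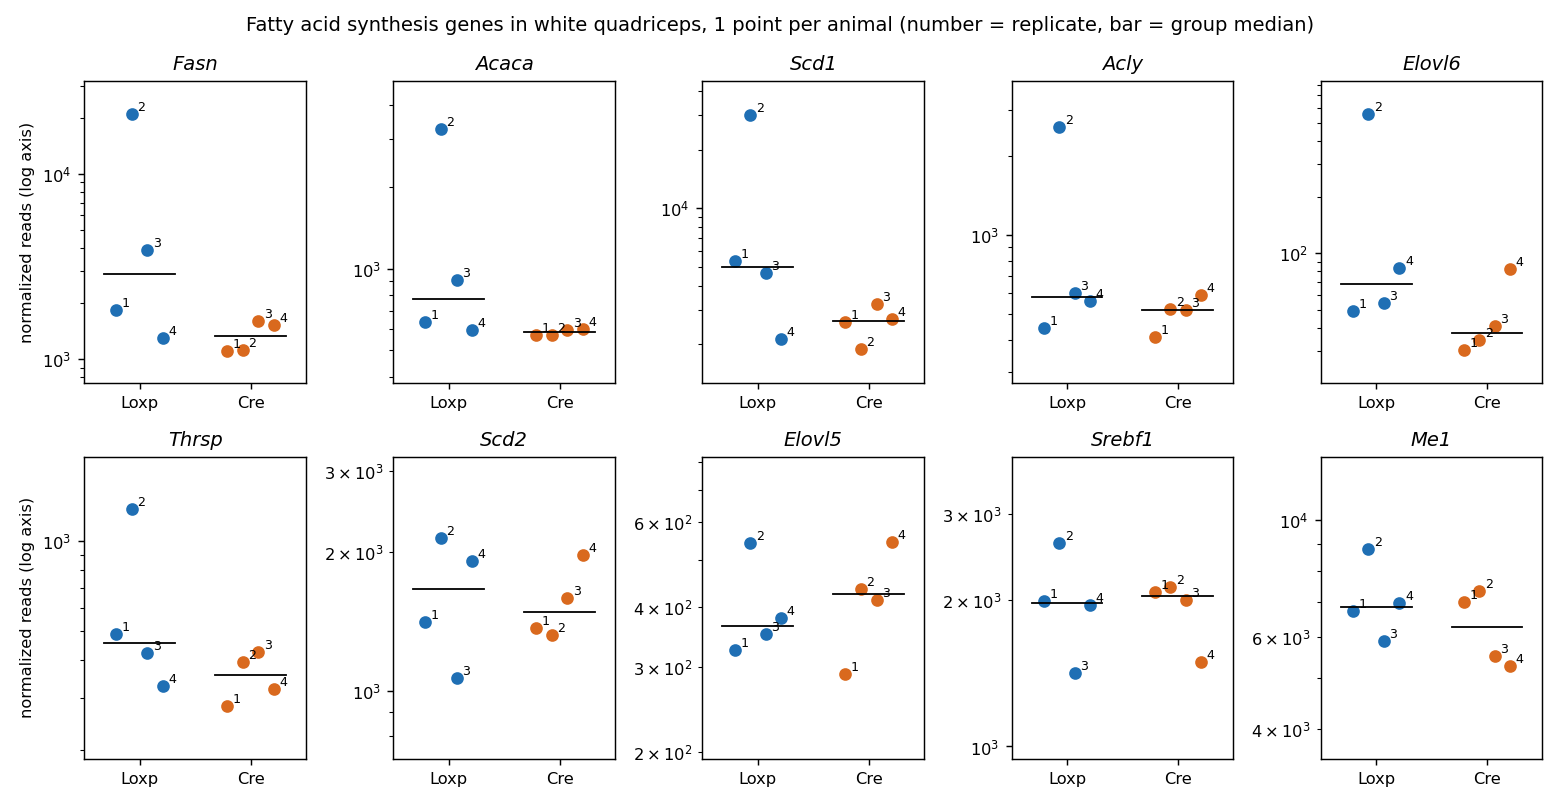
Normalized reads (log axis, scaled per gene) of each of the 10 genes in the 4 Loxp and 4 Cre libraries; each point is 1 animal, the number beside it is the replicate and the bar is the group median. Loxp replicate 2 is the highest point for 9 of 10 genes, far above the rest for Fasn, Acaca, Scd1, Acly, Elovl6 and Thrsp, while for Elovl5 Cre replicate 4 is highest.

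The desaturases Scd1 and Scd2, neighbours on chromosome 19, had different patterns. Scd1 held 5368, 30016, 4653 and 2129 normalized reads in Loxp replicates 1 to 4, and 2602, 1893, 3203 and 2696 in Cre replicates 1 to 4. Loxp replicates 1, 2 and 3 lay above every Cre library and Loxp replicate 4 lay among them. Its difference was -1.31 (SE 0.60, interval -2.63 to 0.02), and -0.56 (SE 0.27) without Loxp replicate 2. Scd2, known mainly from brain and developing tissue, held 1412, 2148, 1069 and 1911 normalized reads in Loxp replicates 1 to 4, and 1373, 1324, 1592 and 1974 in Cre replicates 1 to 4. Loxp replicate 3, second highest in Adipoq, was the lowest library for Scd2, and the groups were mixed throughout. The Scd2 difference was -0.03 (SE 0.20, interval -0.47 to 0.41), and it was above 0 without Loxp replicate 2 (0.12), Loxp replicate 4 (0.06), Cre replicate 1 (0.03) or Cre replicate 2 (0.05).

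The elongases also parted. Elovl6, which acts on palmitate, held 49.3, 557, 54.4 and 83.3 normalized reads in Loxp replicates 1 to 4, and 30.3, 34.2, 41.1 and 82.9 in Cre replicates 1 to 4. Loxp replicate 2 stood alone, and Loxp replicate 4 and Cre replicate 4 were level with each other. The difference of -1.27 (SE 0.66, interval -2.71 to 0.17) became -0.47 (SE 0.35) without Loxp replicate 2. Elovl5, the elongase of polyunsaturated chains, held 326, 543, 351 and 379 normalized reads in Loxp replicates 1 to 4, and 290.4, 435, 414.5 and 547 in Cre replicates 1 to 4. It was the only member whose highest library was a Cre one, and the only member with a difference above 0, at 0.07 (SE 0.20, interval -0.36 to 0.50). Without Loxp replicate 2 the value was 0.23 (SE 0.18), and it was below 0 without Loxp replicate 1 (-0.018) or Cre replicate 4 (-0.066).

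Of the regulators, Srebf1 held 1992, 2622, 1415 and 1949 normalized reads in Loxp replicates 1 to 4, and 2076, 2126, 1997 and 1490 in Cre replicates 1 to 4. Loxp replicate 3 and Cre replicate 4 were low, Loxp replicate 2 was high, and the other 5 libraries were close together. Its difference was -0.03 (SE 0.17, interval -0.40 to 0.33), and it was above 0 without Loxp replicate 2 (0.11) or Cre replicate 4 (0.08). Thrsp held 489.8, 1281, 422 and 328 normalized reads in Loxp replicates 1 to 4, and 280.3, 395, 427 and 321 in Cre replicates 1 to 4. Loxp replicate 2 alone was high and the other animals of both groups intermingled. The Thrsp difference was -0.63 (SE 0.34, interval -1.37 to 0.11), and -0.22 (SE 0.17) without Loxp replicate 2.

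With log2 Adipoq added to the model as a covariate, the Cre minus Loxp differences of the members ran from -0.47 for Elovl6 to 0.18 for Elovl5. That of Fasn was -0.19 (SE 0.41), of Scd1 -0.13 (SE 0.39), of Acaca -0.05 (SE 0.32) and of Acly 0.0032 (SE 0.41). All had an adjusted p of 0.9997 in limma.

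**Figure D2:**
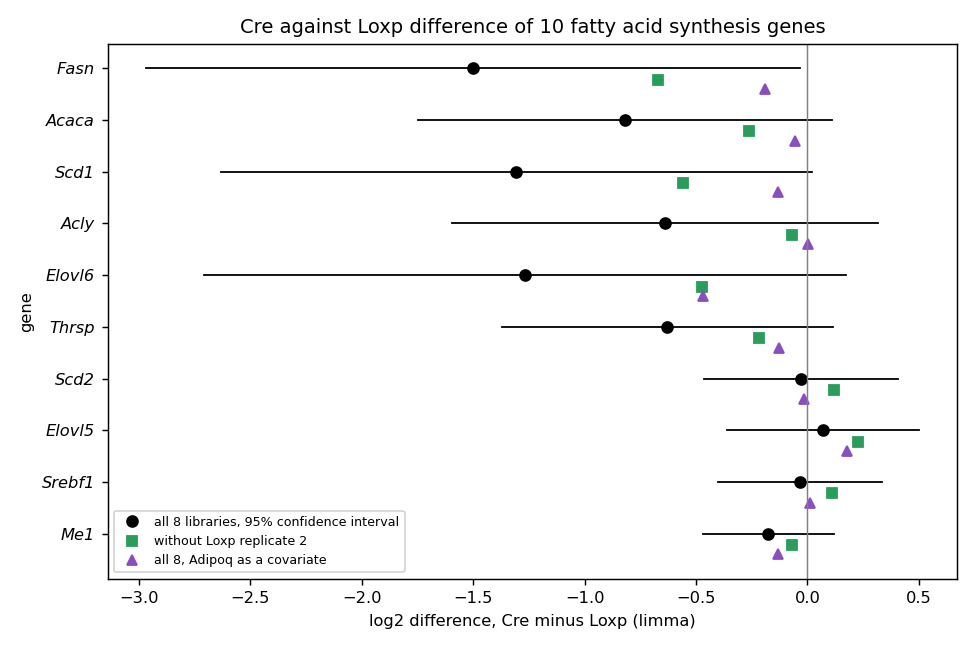
Log2 difference, Cre minus Loxp, of each of the 10 genes: black points and lines are the limma estimate and its 95% confidence interval over all 8 libraries, green squares leave out Loxp replicate 2, and purple triangles keep all 8 and add log2 Adipoq as a covariate. The Fasn estimate moves from -1.50 to -0.67 and -0.19, and the interval of every gene but Fasn includes 0.

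Loxp replicate 2 sorted the members by size. Its level over the median of the other 7 libraries was 13.8-fold for Fasn, 11.3-fold for Elovl6, 11.1-fold for Scd1, 5.48-fold for Acaca, 4.93-fold for Acly and 3.24-fold for Thrsp. These 6 were far above the rest in that animal, in which Adipoq itself was 14.6-fold. The same ratio was 1.52 for Scd2, 1.43 for Elovl5, 1.32 for Srebf1 and 1.31 for Me1. Over all genes, Loxp replicate 2 was the highest library for 16.5% and exceeded 2 times the median of the other 7 for 2.24%. The second library rich in Adipoq, Loxp replicate 3, sorted them differently. Against the median of the 6 libraries other than replicates 2 and 3, it held 2.75-fold for Fasn, 1.76-fold for Scd1 and 1.52-fold for Acaca, with 5.81-fold for Adipoq. Elovl6 (1.20-fold), Thrsp (1.17-fold) and Acly (1.16-fold) were near the level of the other libraries there, and Elovl5 (0.886), Me1 (0.860), Scd2 (0.712) and Srebf1 (0.709) were below it.

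Fasn, Scd1 and Acaca were the members whose level went with Adipoq over the 8 libraries with and without Loxp replicate 2. Slopes, in log2 units per log2 unit of Adipoq within groups, were 0.72 (SE 0.13) for Fasn, 0.65 (SE 0.12) for Scd1 and 0.42 (SE 0.10) for Acaca. None passed over all genes: limma gave adjusted p = 0.0686 for Fasn, 0.0820 for Scd1 and 0.303 for Acaca. Of the 10 members 0 were called, while 29 of the 13637 genes other than Adipoq were (0.213%), all with a positive slope, among them 7 of the 9 other adipocyte markers. At an unadjusted p under 0.05 there were 5 members, Fasn, Scd1, Acaca, Acly and Thrsp, against 3.49% of all genes. Limma-voom called 0 members (lowest adjusted p = 0.0519), and 45 of the 13637 genes. Plin1, the coat protein of the fat droplet, had a slope of 0.95 (SE 0.057, limma adjusted p = 5.47e-05). The slopes of the 9 adipocyte markers other than Adipoq ran from 0.61 for Cidea to 1.25 for Adrb3. That of Cidea was uncertain (SE 0.34, limma unadjusted p = 0.104), and the next lowest was 0.72 for Trarg1. The slope of Fasn was level with that of Trarg1, and those of Scd1 and Acaca were below it.

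Correlations over the 8 animals were also highest for these 3 members. Pearson's r with log2 Adipoq was 0.91 for Fasn (Spearman coefficient 0.74), 0.90 for Scd1 (Spearman 0.88) and 0.86 for Acaca (Spearman 0.76), with exact two-sided permutation p of 0.00226, 0.000992 and 0.003. For the Spearman coefficient the exact permutation p was 0.0458, 0.00724 and 0.0368. After adjustment over all genes none passed by Pearson's r, with adjusted p = 0.448 for Fasn, 0.3075 for Scd1 and 0.493 for Acaca, and 653 of 13637 genes (4.79%) had an unadjusted p under 0.05. Without Loxp replicate 2, r was 0.87 for Fasn, 0.84 for Scd1 and 0.84 for Acaca. Without Loxp replicates 2 and 3, the libraries farthest from the median of Adipoq, r was 0.85 for Scd1 but 0.57 for Fasn and 0.51 for Acaca, so the relation of Fasn and Acaca rests largely on those libraries. In the slope fit, leaving out Loxp replicate 2 lowered the slopes to 0.38 for Fasn, 0.33 for Scd1 and 0.14 for Acaca, with limma adjusted p = 0.431, 0.701 and 0.996. Without Loxp replicates 2 and 3 the slope was 0.51 (SE 0.11) for Scd1, 0.19 (SE 0.10) for Fasn and 0.03 (SE 0.06) for Acaca, each with an adjusted p of 0.9997 in limma. The level of Fasn per normalized read of Adipoq ran from 5.66 in Loxp replicate 3 to 24.1 in Cre replicate 2, and that of Scd1 from 6.77 to 40.7 in the same libraries. Both ratios were lowest where Adipoq was second highest and highest where Adipoq was lowest. For Me1, Srebf1 and Elovl5 too the ratio was highest in Cre replicate 2 (158, 45.8 and 9.37). The same held for Acaca, Acly and Thrsp (12.3, 11.2 and 8.5). For Scd2 and Elovl6 it was highest in Loxp replicate 4. Such ratios are driven in part by the wide range of Adipoq itself.

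Thrsp, Acly and Elovl6 went with Adipoq through Loxp replicate 2. Their slopes were 0.28 (SE 0.10), 0.35 (SE 0.13) and 0.44 (SE 0.21), and 0.03, -0.0074 and -0.11 without that library. Over 8 libraries r was 0.76 for Thrsp (exact permutation p = 0.0323, adjusted 0.979), 0.72 for Acly (exact permutation p = 0.0614, adjusted 0.996) and 0.68 for Elovl6 (exact permutation p = 0.0659, adjusted 0.996). The Spearman coefficient was 0.48, 0.36 and 0.36 (exact permutation p = 0.243, 0.389 and 0.389). Without Loxp replicate 2, r was 0.30 for Thrsp, 0.05 for Acly and 0.0035 for Elovl6. Without replicates 2 and 3 it was 0.14, -0.61 and -0.11, so in these 3 genes the relation rests on those libraries.

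Srebf1, Me1, Scd2 and Elovl5 did not go with Adipoq. Their slopes were 0.03 (interval -0.12 to 0.17), 0.02 (interval -0.09 to 0.14), 0.0089 (interval -0.16 to 0.18) and 0.06 (interval -0.10 to 0.22), and r was 0.14, 0.33, 0.06 and 0.15, with exact permutation p from 0.421 to 0.894. The Spearman coefficient was -0.02, 0.10, 0.12 and -0.17 (exact permutation p from 0.703 to 0.977). The upper ends of these intervals lay below the slopes estimated for Fasn, Scd1 and Acaca over all libraries. The interval of Acaca itself (0.20 to 0.64) overlapped that of Elovl5. Without Loxp replicate 2 the Acaca slope was 0.14, within the interval of Elovl5. Without Loxp replicates 2 and 3 the slopes of Acaca (0.03) and Fasn (0.19) lay within it, and that of Scd1 (0.51) above it. The slopes of Srebf1, Me1, Scd2 and Elovl5 were below 0 in each of these refits. Without Loxp replicate 2 all 4 values of r were below 0, from -0.62 for Srebf1 to -0.36 for Me1.

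**Figure D3:**
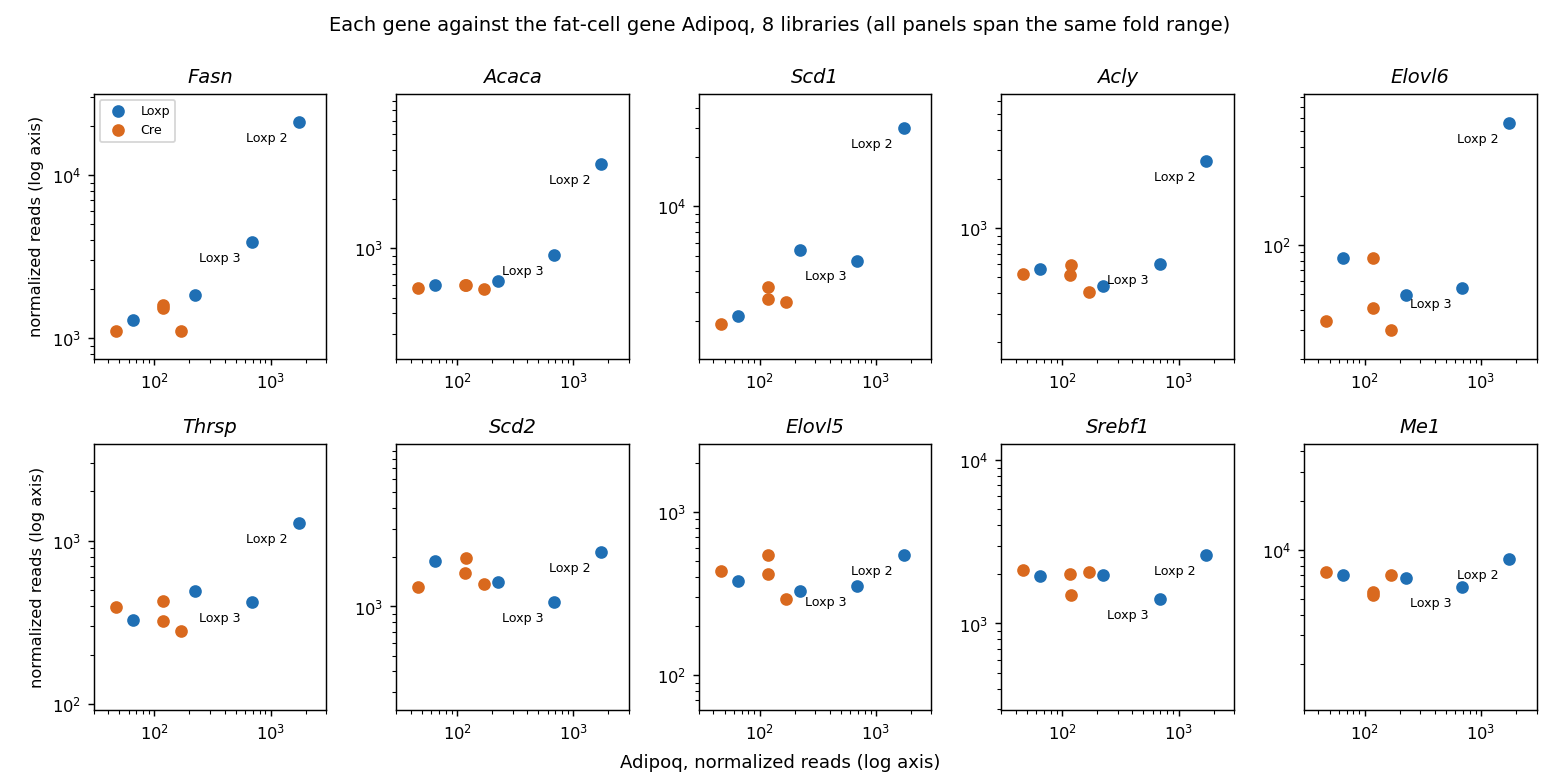
Normalized reads of each gene (y, log axis) against normalized reads of Adipoq (x, log axis) in 8 libraries, blue for Loxp and orange for Cre, with the same fold range in every panel. In Fasn, Acaca and Scd1 the level goes up with Adipoq, in Acly, Elovl6 and Thrsp only Loxp replicate 2 is raised well above the rest, and Scd2, Elovl5, Srebf1 and Me1 stay within a narrow band.

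The members were also set against the mean log2 level of markers of other cells and fibre types, giving 80 relations over 8 marker measures. This comparison was added after the values had been seen, and 0 of all genes passed after adjustment for any measure. Me1 had r = 0.91 (Spearman 0.90, exact permutation p = 0.00198 for r and 0.00456 for Spearman, adjusted 0.285 and 0.306) with the 5 markers of fast glycolytic fibres, among them Myh4 and Actn3. Srebf1 had r = 0.85 (Spearman 0.76, exact permutation p = 0.00548 for r and 0.0368 for Spearman, adjusted 0.322 and 0.413) with the same list. For that list 11.6% of all genes had an unadjusted p under 0.05, and r without the 2 farthest libraries, Loxp replicate 3 and Cre replicate 4, was 0.86 for Me1 and 0.56 for Srebf1. Without Loxp replicate 2 it was 0.92 and 0.82. The summed level of the 5 markers spanned a small range, 4397333 to 5319166 normalized reads in Loxp and 4133376 to 5027975 in Cre libraries.

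The sum of 7 oxidative fibre markers was 26621, 7024, 111642 and 75249 normalized reads in Loxp replicates 1 to 4 and 14862, 28349, 98005 and 97623 in Cre replicates 1 to 4. The 3 libraries with the highest sums, Loxp replicate 3 and Cre replicates 3 and 4, were the 3 lowest for Me1, and the library with the lowest sum, Loxp replicate 2, was highest for Me1. The libraries fall into separate sets on this sum, so no correlation is given. The part of fibre type in the levels of Me1 and Srebf1 was not tested.

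Elovl5 and Scd2 went with the mean of 7 Schwann cell markers, genes of the myelin-forming cells of nerve. The sum of all 8 listed markers, of which Mag had too few reads for the mean, ran from 1839.5 to 3017 normalized reads in Loxp and from 1643 to 3119 in Cre libraries. For Elovl5 r was 0.79 (Spearman 0.79, exact permutation p = 0.0241 for r and 0.0279 for Spearman, adjusted 0.999 and 0.91), and for Scd2 r was 0.77 (Spearman 0.67, exact permutation p = 0.0311 for r and 0.0831 for Spearman, adjusted 0.999 and 0.91). Over all genes 4.61% had an unadjusted p under 0.05 for this list. Without Cre replicates 1 and 4, the farthest libraries, r was 0.51 for Elovl5 and 0.82 for Scd2, and without Loxp replicate 2 it was 0.81 and 0.79. With the same list Elovl6 and Acly had r = 0.50 and 0.38 over 8 libraries, and 0.75 and 0.68 without Loxp replicate 2. Scd2 also had r = 0.71 with endothelial markers (Spearman 0.74, exact permutation p = 0.0493 for r and 0.0458 for Spearman, adjusted 1.0 and 0.726), with 4.26% of all genes at an unadjusted p under 0.05. Without the 2 libraries farthest in that list r was 0.65 for Scd2. The part of nerve or vessel in these levels was not tested. Elovl6 had a Spearman coefficient of 0.76 with endothelial markers (exact permutation p = 0.0368, adjusted 0.719, against 6.18% of all genes under 0.05 unadjusted), with r = 0.46 over 8 libraries and 0.75 without Loxp replicate 2. Scd2 had a Spearman coefficient of 0.76 with fibroblast markers (exact permutation p = 0.0368, adjusted 0.625, against 7.14%), with r = 0.56.

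Smooth muscle markers also went with the 3 members that went with Adipoq, when ranks were compared. The Spearman coefficient with the mean of the 4 markers was 0.93 for Acaca, 0.88 for Fasn and 0.86 for Scd1 (exact permutation p = 0.00223, 0.00724 and 0.0107, adjusted 0.994 for each), and 4.17% of all genes had an unadjusted p under 0.05. For Acaca and Fasn these were above the Spearman coefficients with Adipoq, and for Scd1 below. Pearson's r was 0.56 for Acaca, 0.66 for Fasn and 0.66 for Scd1 (exact permutation p = 0.148, 0.0626 and 0.0657, adjusted 1.0 for each), below the values with Adipoq. Without Cre replicates 1 and 2, the farthest libraries, r was 0.69, 0.72 and 0.80. The relation was not particular to these 3 members. The Spearman coefficient was 0.71 for Thrsp and 0.69 for Elovl6 (exact permutation p = 0.0576 and 0.0694). Over 8 libraries Pearson's r was 0.68 for Elovl6, 0.62 for Thrsp and 0.56 for Acly. The part of smooth muscle in these levels was not tested.

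**Figure D4:**
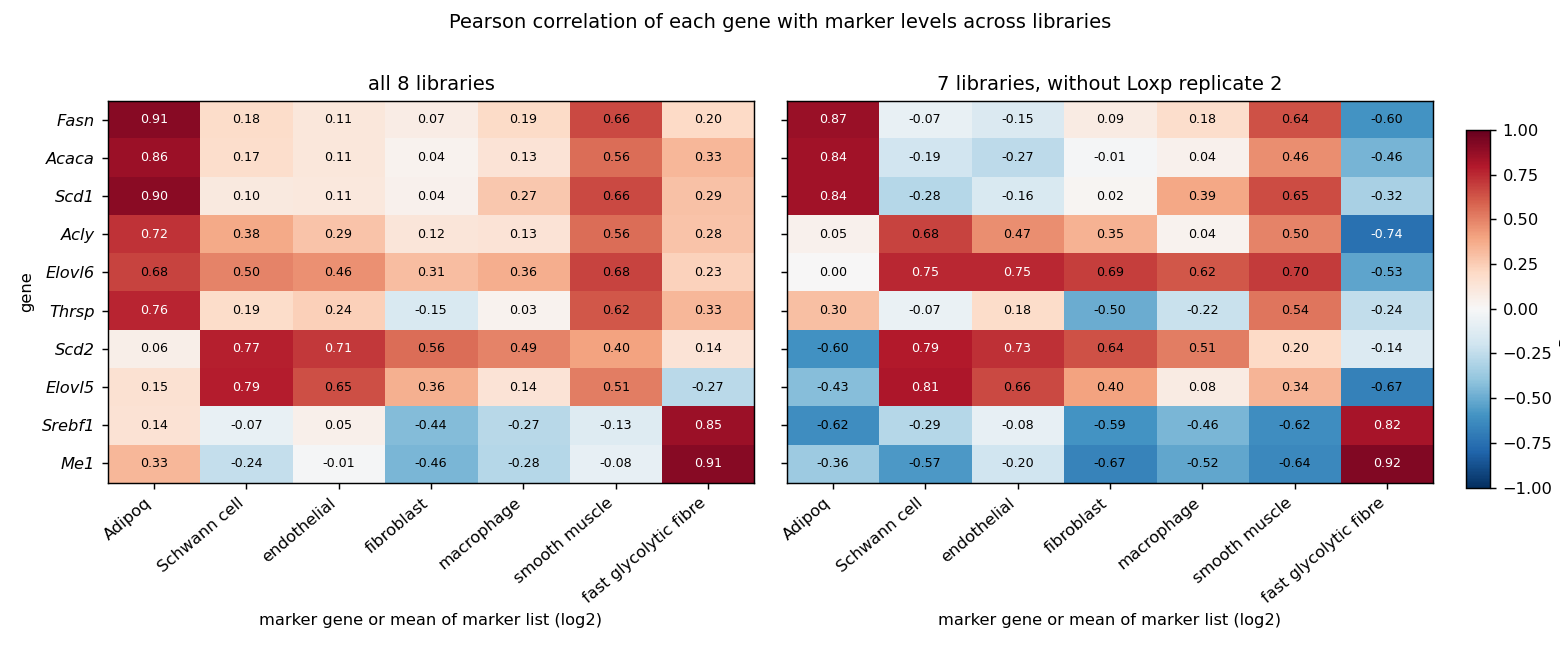
Pearson's r of the log2 level of each of the 10 genes (rows) with Adipoq or the mean of a marker list (columns), over all 8 libraries (left) and without Loxp replicate 2 (right); red is positive and blue negative. Fasn, Acaca and Scd1 keep r of at least 0.84 with Adipoq in both panels, while those of Acly and Elovl6 go from 0.72 and 0.68 to 0.05 and 0.00.

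Pairs of members followed the 3 patterns only in part. Fasn and Acaca, successive steps of the pathway, had r = 0.98 over 8 libraries and 0.97 without Loxp replicate 2. Fasn and Scd1 went from 0.96 to 0.76, Acaca and Scd1 from 0.95 to 0.64, Fasn and Acly from 0.93 to 0.46, and Fasn and Elovl6 from 0.88 to 0.25. Thrsp, high in Loxp replicate 2 alone, still had r = 0.65 with Scd1 and 0.52 with Fasn without that library, but 0.08 with Acly and -0.09 with Elovl6. Acly had 0.68 with Elovl6 and 0.69 with Elovl5 without it. Srebf1 and its textbook target Fasn had r = 0.34 over 8 libraries and -0.75 without Loxp replicate 2. Srebf1 and Me1 had 0.82 and 0.69. These values describe 8 libraries that share tissue content and have no test.

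The genes whose log2 level was most like that of Fasn over the 8 libraries, by Pearson's r, were Slc25a1, the mitochondrial citrate carrier (0.991), Dgat1, an enzyme of triglyceride synthesis (0.989), and Fabp4, the fatty acid binding protein of fat cells (0.988). Slc25a1 held 114, 717, 187 and 76.8 normalized reads in Loxp replicates 1 to 4, and 65.7, 52.6, 95.9 and 93.5 in Cre replicates 1 to 4. Like Fasn, it was highest in Loxp replicate 2 and second in Loxp replicate 3. Those most like Acly were Mcam, an adhesion molecule of vessel walls (0.975), Tkt, transketolase (0.954), and Chst15 (0.953), each highest in Loxp replicate 2. Scd2 was matched most closely by Tmsb10 (0.985), Rmi2 (0.967) and Ssh1 (0.955), and Elovl5 by St8sia6 (0.973), Ntng2 (0.927) and Slc25a45 (0.925). Members, predicted genes, and the genes Ahsp, Ndufb4 and Ppard were left out of this search. Among the genes listed, none was most like more than 1 of these 4 members.

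Of 49 other genes of the pathway, 43 had enough reads, of which 18 lay above and 25 below 0 between Cre and Loxp, with a median of -0.01. Limma called 0 of the 43, as did limma-voom. Unadjusted limma p-values under 0.05 were found for 2 of the 43, against 2.91% of all genes. These were Slc25a1 (-1.30, SE 0.55) and Dgat1 (-0.47, SE 0.20). The list for acetyl-CoA, malonyl-CoA and NADPH had 12 tested genes, 9 below 0. Not all of them supply these molecules, as the list also holds Mlycd, Acsl1, Mcat and Oxsm. After Slc25a1 the smallest p belonged to Pgd (-0.38, SE 0.18) and G6pdx (-0.52, SE 0.29), NADPH-yielding enzymes of the pentose phosphate pathway. Acacb, the carboxylase of muscle, was even, at 11212 to 13831 normalized reads in the 8 libraries and a difference of -0.05 (SE 0.07).

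The elongation and desaturation list had 9 tested genes, 6 below 0. Hacd2, a dehydratase of the elongation cycle, was at -0.85 (SE 0.42), Hsd17b12, its ketoreductase, at -0.39 (SE 0.23), and Elovl1 at 0.22 (SE 0.15). Elovl3 was at 0 in all libraries, Scd3 held at most 1.01 and Scd4 at most 8.5 normalized reads, so Scd1 and Scd2 were the desaturases of this family above the filter. Of 17 regulators 11 lay above 0, all between -0.14 and 0.23. Mbtps1, a protease that releases Srebf1 protein, was at 0.07 (SE 0.06), Mlxipl, the carbohydrate response factor ChREBP, at -0.10 (SE 0.08) and Mid1ip1, the paralog of Thrsp, at 0.19 (SE 0.17). Of 5 genes that build glycerolipids 4 lay below 0, with Agpat2 at -1.05 (SE 0.56) and Dgat2 at -0.59 (SE 0.40) after Dgat1.

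On the slope with Adipoq 0 of the 43 were called in limma, against 0.213% of all genes. Limma-voom called 1 of the 43 (Slc25a1), and 45 of all 13637 genes. In limma 9 had an unadjusted p under 0.05, against 3.49% of all genes. There were 26 slopes above and 17 below 0, with a median of 0.01. The 9 came from 3 lists. They were Slc25a1 (0.60, SE 0.10, adjusted p = 0.0628), G6pdx (0.28), Pgd (0.15), Hacd2 (0.39), Hsd17b12 (0.21), Fads3, of the desaturase family (0.23), Agpat2 (0.55), Dgat2 (0.32) and Dgat1 (0.20). None of the 17 regulators was among them. The smallest p values there were those of Nr1h3, the liver X receptor alpha (0.11, SE 0.06), Mid1ip1 (-0.10, SE 0.06) and Insig1, which retains the precursor of Srebf1 protein (0.10, SE 0.06).

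Per kilobase of exon, the median over 8 libraries put the members in the order Me1 (1779 normalized reads per kb), Scd1 (603), Srebf1 (354), Scd2 (275), Thrsp (187), Fasn (144), Elovl5 (113), Acly (103), Acaca (35.0) and Elovl6 (8.06). Neighbours in the middle of this order overlapped in their ranges, such as Fasn (102 to 1932) with Elovl5 (82.5 to 155) and Acly (77.5 to 488). Me1 (1368 to 2289) lay above the whole range of Srebf1 (251 to 465) and Scd2 (196 to 393). In Loxp replicate 2 the order at the top was Scd1 at 6136, Me1 at 2289 and Fasn at 1932 normalized reads per kb. The length used is that of all annotated exons of a gene together. For Acaca it was 17074 bases against 9513 in the longest transcript, and for Thrsp 2189 against 1277. The order by transcript length was not computed.

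Coordinates are those of GENCODE M21 on GRCm38, and each of the 10 is a protein-coding gene. Chromosome 11 carries Fasn (chr11:120805846-120824547, minus strand), Acaca (chr11:84129672-84401651, plus), Acly (chr11:100476353-100528000, minus) and Srebf1 (chr11:60199089-60222581, minus). Chromosome 19 carries Scd2 (chr19:44293674-44306864, plus) and Scd1 (chr19:44394455-44407879, minus), and chromosome 9 carries Elovl5 (chr9:77917364-77984519, plus) and Me1 (chr9:86581371-86695953, minus). Elovl6 lies at chr3:129532355-129638495 (plus) and Thrsp at chr7:97412938-97417730 (minus). Of the stretches of 50 bases in the longest Acaca transcript 52.6% also occur in Gm5182, which held 3.43 to 31.3 normalized reads and was itself highest in Loxp replicate 2. For Me1 32.8% are shared with Gm7049, Gm48795 and Gm7329, of which Gm7049 held 11.5 to 35.8 and the others at most 2.45. Scd1 and Scd2 share 145 such stretches, 3.03% and 2.68% of each. Reads within shared stretches cannot be assigned to 1 gene alone. Exons of Srebf1 overlap those of Rai1 on the opposite strand by 109 bases, 1.94% of its exonic length, and the sources used here do not say whether the counting used strand.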

How the data were processed

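RNA was made into TruSeq stranded libraries, per the labels. The submitters' processing notes name FastQC, cutadapt, STAR, HTSeq, DESeq2 and GRCm38, with no role, order or version. The authors deposited log2 values of x + 1. From the values, x is a read count divided by 1 factor per library: below 1000 reads, 100% were within 0.1 of a whole multiple of the value of 1 read. The pseudocount of 1 understates the differences of low genes. Date-mangled names of 27 genes were restored from the NCBI gene number.

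A gene was kept where 4 or more libraries held 10 or more normalized reads. limma 3.58.1 in R 4.3.3 (mean-variance trend) tested Cre against Loxp and, in a second model with a group term, the slope on log2 Adipoq, with Benjamini-Hochberg adjustment over all genes and a threshold of 0.05. Confidence intervals are at 95%. Correlations used all 40320 pairings for every gene, and their p-values were adjusted over all genes in place of the 10 members, as first planned. Libraries of a group differed by a chi-square of 25.8 to 78.6 per gene, so each counted as 1 replicate. The limma fits were tested on simulated data. Counting error was not compared with the spread between animals for each member. It weighs most on the lowest member, Elovl6, which had 28 to 498 reads per library, with 36, 28 and 36 in Cre replicates 1 to 3.

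The members and gene lists were chosen with earlier results of these data known. Named genes were the members, Acot2, the adipocyte markers, and up to 3 genes with the smallest p per pathway list and fit. Also named were the 3 most like each of Fasn, Acly, Scd2 and Elovl5. That search left out the members, predicted genes, and the genes Ahsp, Ndufb4 and Ppard. Acacb, Elovl3, Scd3, Scd4, Ucp1, Cnn1, Myh7 and other single markers were named beside these after their values were seen. Alternatives were other pseudocounts, filters and scalings, library weights, limma-voom on recovered reads, a block of adjacent animal numbers, and left-out libraries. Sequences and motifs are from RefSeq on GRCm38.p6.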

Additional observations from a re-analysis of the deposited data

Results flagged for a closer look

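In 6 members, Loxp replicate 2 lay far from the other 3 Loxp libraries: the gap to the next library, as a share of the whole range of normalized reads in the group, was 0.933 for Elovl6, 0.924 for Acly, 0.884 for Scd1, 0.883 for Acaca, 0.869 for Fasn and 0.83 for Thrsp. Each is above the critical value of Dixon's test at 95%. Chance alone passes it in about 1 in 20 groups where values are normally distributed. Only the members were checked, so the share over all genes is not known. The check was run on 20 groups of normalized reads and again on their log2 values, where none of the 20 passed. The 6 values come from the same animal and are not independent of each other.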

How the results depend on the processing

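The count of genes called between Cre and Loxp was 2 in each of the 19 alternatives run, and no member passed in any of them (lowest adjusted p 0.9 in limma). The count with a slope on Adipoq moved from 29 to 46 with no filter, 16 with a mean of at least 100 normalized reads, 45 with limma-voom, 65 with no group term and 1 without Loxp replicates 2 and 3. Leaving out each library gave 7 (without Loxp replicate 4) to 39, with 12 without Loxp replicate 2. The labels do not say whether adjacent animal numbers mark pairs. Deviations of the 4 possible pairs correlated at -0.0835, -0.0812, 0.188 and 0.151, which cannot decide it. With them as a replicate block, 2 and 11 genes were called.

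Single members passed on the slope in 10 of 200 fits, all limma adjusted p. The Fasn slope passed with no filter (0.00996), with no group term (0.0048), with the adipocyte marker mean (0.0274), and without Loxp replicate 3 (0.0337), Cre replicate 1 (0.029) or Cre replicate 2 (0.0497). The Scd1 slope passed with no filter (0.0121), no group term (0.00623) and without Loxp replicate 3 (0.00118), and that of Acaca with no group term (0.0354). Over all alternatives the adjusted p reached 0.9997 for the slopes of Fasn and Scd1 and 0.9998 for that of Acaca. The cause of these shifts was not tested.

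With each library left out in turn, group differences spanned -0.22 to 0.12 for Scd2, -0.066 to 0.24 for Elovl5 and -0.19 to 0.11 for Srebf1. Srebf1 was at 0.027 with library weights and 0.013 with Adipoq as a covariate, and Acly at 0.022 without Loxp replicates 2 and 3 and 0.0032 with the covariate. Slopes then spanned -0.0074 to 0.55 for Acly, -0.16 to 0.17 for Scd2, -0.073 to 0.11 for Elovl5, -0.11 to 0.83 for Elovl6, -0.12 to 0.070 for Srebf1 and -0.084 to 0.055 for Me1. Library weights gave slopes of -0.017 for Scd2, -0.011 for Srebf1 and -0.0018 for Me1, and the replicate block -0.11 for Scd2 and -0.11 for Elovl5. Without Loxp replicates 2 and 3, slopes were 0.51 for Scd1, 0.19 for Fasn, 0.028 for Acaca, 0.034 for Thrsp, -0.15 for Acly, -0.051 for Scd2, -0.16 for Elovl5, -0.14 for Elovl6, -0.036 for Srebf1 and -0.081 for Me1, and r was -0.61, -0.14, -0.46, -0.11, -0.14 and -0.28 for the last 6, in the same order. TMM scaling moved the median of all genes by -0.0013.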
